A study of Mus musculus with 21 samples.

Results

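Tubulin isoforms were described in mouse heart through 9 genes, 4 for alpha-tubulin (Tuba1a, Tuba1b, Tuba4a and Tuba8) and 5 for beta-tubulin (Tubb2a, Tubb2b, Tubb4b, Tubb5 and Tubb6). They were taken by symbol from the 19096 genes of the deposited gene matrix, and all 9 were among the 15216 genes with enough reads to test. Tuba4a had been chosen for its lower level in chow-fed hearts given renin, so its values in the 2 chow groups are given as a description with no test. RNA sequencing covered 21 hearts of male C57BL/6NJ mice that were 8 to 10 weeks old at the start and ate chow or a high-fat diet (HFD, 60% of calories from fat) for 10 weeks. Each mouse was injected retro-orbitally with AAV-Renin, an adeno-associated virus for renin expression, or with a null vector, and the heart was freeze-clamped 6 weeks later. The sample labels call the null-vector mice novirus. The groups were chow novirus (4 hearts, the control), chow Renin (6), HFD novirus (6) and HFD Renin (5, the combined model of HFpEF, heart failure in which ejection fraction is preserved). The promoter that drives renin in the virus is not given in the sources used here.

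Alpha- and beta-tubulin pair into heterodimers that polymerise end to end into the protofilaments of microtubules. Mammals encode several genes of each kind, whose proteins differ mostly in their acidic C-terminal tails. Most alpha-tubulins end in a tyrosine that the vasohibin enzymes (VASH1 or VASH2 with SVBP) remove from polymerised tubulin and that tubulin tyrosine ligase (TTL) puts back on free dimers. In heart muscle cells, microtubules lacking that tyrosine bind desmin at the Z-disc, resist shortening and add stiffness.

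The coding ends show where the isoforms differ, so the last 33 bases of the coding sequence, stop codon included, are printed for 7 of the 9 genes from the GENCODE M21 transcripts (GRCm38), 5′ to 3′ on the coding strand. Capitals mark the last codon before the stop.
Tuba1b (chr15:98931582-98931614, minus strand): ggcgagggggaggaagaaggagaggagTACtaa
Tuba4a (chr1:75215622-75215654, minus strand): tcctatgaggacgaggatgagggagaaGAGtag
Tuba8 (chr6:121226047-121226079, plus strand): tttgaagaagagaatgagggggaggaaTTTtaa
Tubb2a (chr13:34074468-34074500, minus strand): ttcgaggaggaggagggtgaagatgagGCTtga
Tubb2b (chr13:34127471-34127503, minus strand): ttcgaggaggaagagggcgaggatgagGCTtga
Tubb4b (chr2:25222308-25222340, minus strand): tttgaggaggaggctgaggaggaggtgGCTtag
Tubb5 (chr17:35834982-35835014, minus strand): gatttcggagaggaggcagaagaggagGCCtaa
Tuba1b ended in a tyrosine codon. Tuba4a ended in a glutamate codon, the residue that is left at the tail of other alpha-tubulins once tyrosine is removed, and Tuba8 ended in a phenylalanine codon. The 4 beta-tubulins printed ended in alanine codons. The 2 alpha genes on chromosome 15 lie close together, as do Tubb2a and Tubb2b on chromosome 13.

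On GRCm38, Tuba1a (ENSMUSG00000072235) spans chr15:98949837-98953703 and Tuba1b (ENSMUSG00000023004) chr15:98931425-98934565. Tuba4a (ENSMUSG00000026202) spans chr1:75214228-75219865, and Tuba8 (ENSMUSG00000030137) spans chr6:121210696-121226854. Tubb2a (ENSMUSG00000058672) spans chr13:34074274-34078007 and Tubb2b (ENSMUSG00000045136) chr13:34126748-34130466. Tubb4b (ENSMUSG00000036752) spans chr2:25222160-25224702, Tubb5 (ENSMUSG00000001525) chr17:35833921-35838306 and Tubb6 (ENSMUSG00000001473) chr18:67390717-67402749. Tuba8 and Tubb6 lie on the plus strand and the other 7 on the minus strand.

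Library depth was 18.7 to 29.3 M estimated reads (mega reads) per heart, and the 9 genes received from a mean of 99.6 estimated reads (Tubb2b) to 10011 (Tuba4a). Depth in chow novirus was 18.7 to 21.4 M, below every heart of the other groups (lowest 22.8 M). Ventricular cardiomyocyte markers were abundant in every heart, with a summed level of 26326 to 39469 TPM (a share of all transcripts, corrected for transcript length). Other features of the libraries moved with the groups. All 8 central neuron markers, all 5 oligodendrocyte markers and all 4 astrocyte markers were called higher in chow Renin than in chow novirus. The summed central neuron markers lay at 86.3 to 142 TPM in chow Renin, 41.7 to 44.3 in chow novirus, 34.3 to 54.8 in HFD novirus and 36.9 to 53.5 in HFD Renin, with no overlap of chow Renin and the rest. Summed peripheral neuron markers stayed under 1.09 TPM in all hearts. In all, 5 hearts, spread over the 4 groups, had a high score for atrial markers (5 or more on a log2 scale), namely chow novirus 3, chow Renin 1 and 3, HFD novirus 3 and HFD Renin 3. A clock gene score, which moves with time of day, lay between -1.62 and -0.01 in HFD Renin and between 0.09 and 0.52 in HFD novirus, so clock state and group cannot be told apart there. The score lay between -0.51 and -0.04 in chow Renin and between 0.37 and 1.03 in chow novirus, again with no overlap.

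Tuba4a and Tubb4b were the leading alpha and beta genes of these hearts. Per length, Tuba4a averaged 244.5 TPM over the 21 hearts, with a range of 149.1 to 392. Tubb4b averaged 111 TPM, Tuba1b 87.6, Tuba8 59.7, Tuba1a 36.4, Tubb5 32.9, Tubb2a 17.7, Tubb6 17.6 and Tubb2b 1.86. Each gene was above the next in this order in 20 or 21 of 21 hearts, with 2 exceptions. Tuba1a was above Tubb5 in 16 of 21, and Tubb2a was above Tubb6 in only 8 of 21. The lead of Tuba4a depended on which transcripts were summed. Over transcripts with at least 1200 coding bases and a stop codon, Tuba4a averaged 117 TPM against 109 for Tubb4b and was the higher in 12 of 21 hearts.

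**Figure D1:**
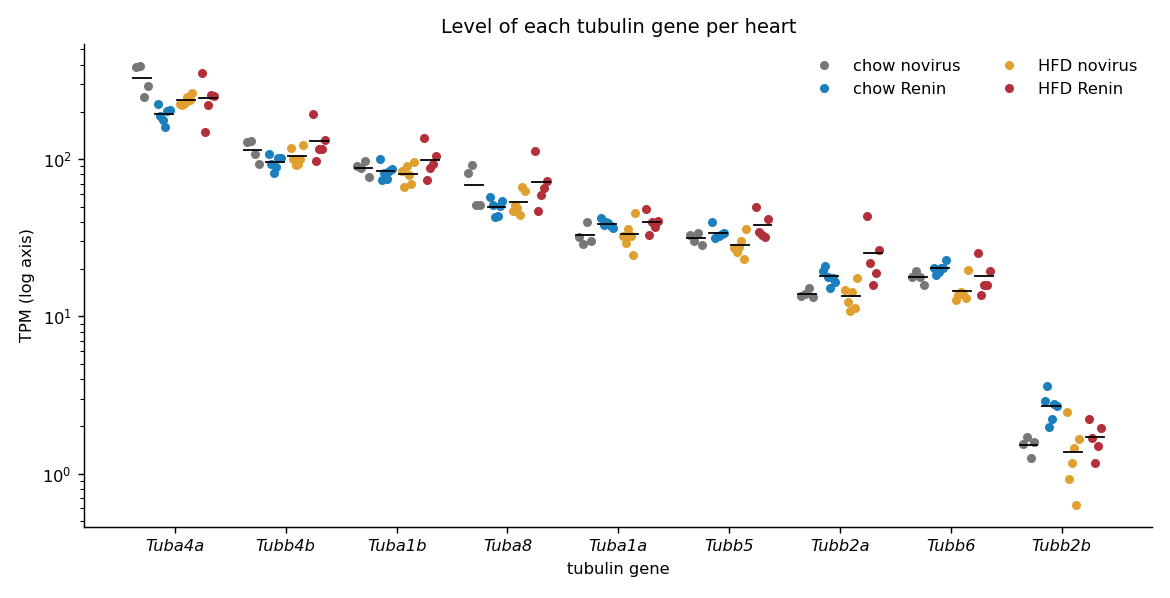
Level of each tubulin gene in each heart, as TPM summed over all annotated transcripts on a log axis; points are hearts coloured by group. Tuba4a lies highest in all 21 hearts (149.1 to 392 TPM), and Tubb2b lowest (0.632 to 3.59 TPM).

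Several members share long stretches of sequence with other genes, which limits how reads could be assigned. Of the 31-base words in the main transcript, 86.05% were shared with another annotated gene for Tuba1b, 78.57% for Tuba1a and 70.41% for Tubb4b, whose largest partner was the pseudogene Tubb4b-ps1. Tubb2a and Tubb2b shared 807 words with each other, 56.39% and 45.86% of their words being shared in all. Tuba4a had 34.63% shared, most of them with Stk16, a kinase gene that overlaps it on the other strand. Tuba8 had 17.06% shared, most with the antisense gene Gm15856. Tubb5 (4.467%) and Tubb6 (3.935%) were nearly free of sharing. Whether counting used the strand is not stated in the sources used here, so reads of Tuba4a and Stk16, or of Tuba8 and Gm15856, could be mixed. Under the same read assignment, Stk16 had group means of 24.0 to 25.3 TPM and Tuba4a of 193 to 329 TPM.

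Tuba4a was lowest in chow Renin. In CPM (reads scaled to library size, after TMM normalisation for library composition), its values in chow novirus were 679, 658, 406 and 497. In chow Renin the lowest, median and highest hearts had 259, 316 and 340. All 6 chow Renin hearts lay below all 4 controls, as they did for 4.75% of all genes, and the spread among controls was wide. This is the contrast that chose the gene, and it is described by a log2 difference of -0.88 ± 0.16 (SE). In HFD novirus the lowest, median and highest hearts had 388, 450 and 494 CPM, and in HFD Renin the 5 hearts had 567, 261, 369, 446 and 413. The HFD Renin hearts were spread on both sides of the HFD novirus range, 1 above and 2 below it.

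Renin given on the HFD did not bring a called difference in Tuba4a (log2 difference -0.10 ± 0.15, edgeR adjusted p = 0.731). This comparison shares no heart with the chow contrast. The 95% interval of the difference ran from -0.40 to 0.20. The fitted effect of renin was 0.78 ± 0.22 (log2) higher on the HFD than on chow, which is given without a test because the chow contrast enters it. Beside these values, the central nervous system markers above were high in chow Renin alone, and their part in the Tuba4a levels was not tested. Clock scores did not overlap between chow Renin and chow novirus, and their part was not tested either.

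The main annotated Tuba4a transcripts had lower means in chow Renin than in chow novirus, again as a description. The transcript ENSMUST00000079464, which took 44.9% of the gene's reads, averaged 110 ± 26.0 TPM (SD, n = 4) in chow novirus and 64.3 ± 6.66 in chow Renin (n = 6). ENSMUST00000188593 averaged 88.2 and 48.4 TPM in the same groups, and the retained-intron form ENSMUST00000187103 averaged 67.2 and 44.0, with overlap of the groups (lowest 48.6 in chow novirus, highest 52.0 in chow Renin). ENSMUST00000186213 averaged 46.3 and 28.4 TPM, and the minor ENSMUST00000186971 averaged 15.4 and 5.89. In HFD novirus and HFD Renin the first of these averaged 81.2 ± 12.7 and 79.9 ± 20.2 TPM.

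**Figure D2:**
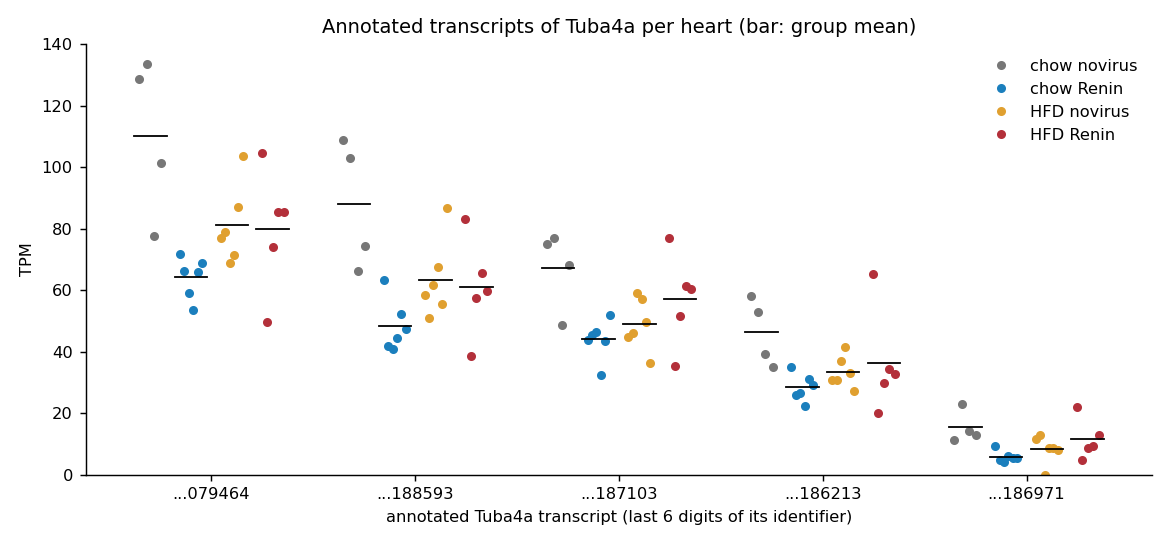
TPM of annotated Tuba4a transcripts (x axis, named by the last digits of the identifier) in each heart, with group means. The longest-coding form, ENSMUST00000079464, has means of 110 TPM in chow novirus, 64.3 in chow Renin, 81.2 in HFD novirus and 79.9 in HFD Renin.

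The balance among isoforms followed from these levels. Tuba4a made up 63.1% ± 4.15 (SD, n = 4) of summed alpha-tubulin TPM in chow novirus, 58.6% ± 2.06 in HFD novirus (n = 6), 53.6% ± 2.75 in HFD Renin (n = 5) and 52.8% ± 1.36 in chow Renin (n = 6). Tuba1b held 17.4% of the alpha sum in chow novirus and 22.8% in chow Renin. On the beta side, Tubb4b held 63.8% ± 2.92 in chow novirus, 64.4% ± 2.79 in HFD novirus, 61.2% ± 2.41 in HFD Renin and 56.2% ± 1.61 in chow Renin. Tubb2a held 7.83% ± 0.934 and 8.29% ± 0.730 in the novirus groups on chow and HFD, and 10.5% ± 1.25 and 11.5% ± 2.02 in the Renin groups on chow and HFD. The ratio of summed alpha to summed beta TPM was 2.88 ± 0.274 in chow novirus, 2.51 ± 0.206 in HFD novirus, 2.13 ± 0.0875 in chow Renin and 2.14 ± 0.248 in HFD Renin. Every chow Renin heart (2.003 to 2.24) lay below every chow novirus heart (2.48 to 3.06). Over long-coding transcripts alone, the Tuba4a share was 44.9% in chow novirus, 40.7% in HFD novirus, 35.3% in HFD Renin and 35.0% in chow Renin, and the alpha to beta ratio was 1.957, 1.78, 1.56 and 1.58 in the same order. These shares and ratios were not tested, and the alpha side includes the Tuba4a difference that chose the gene. In bulk tissue, fewer cells of a type and less RNA per cell cannot be told apart.

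**Figure D3:**
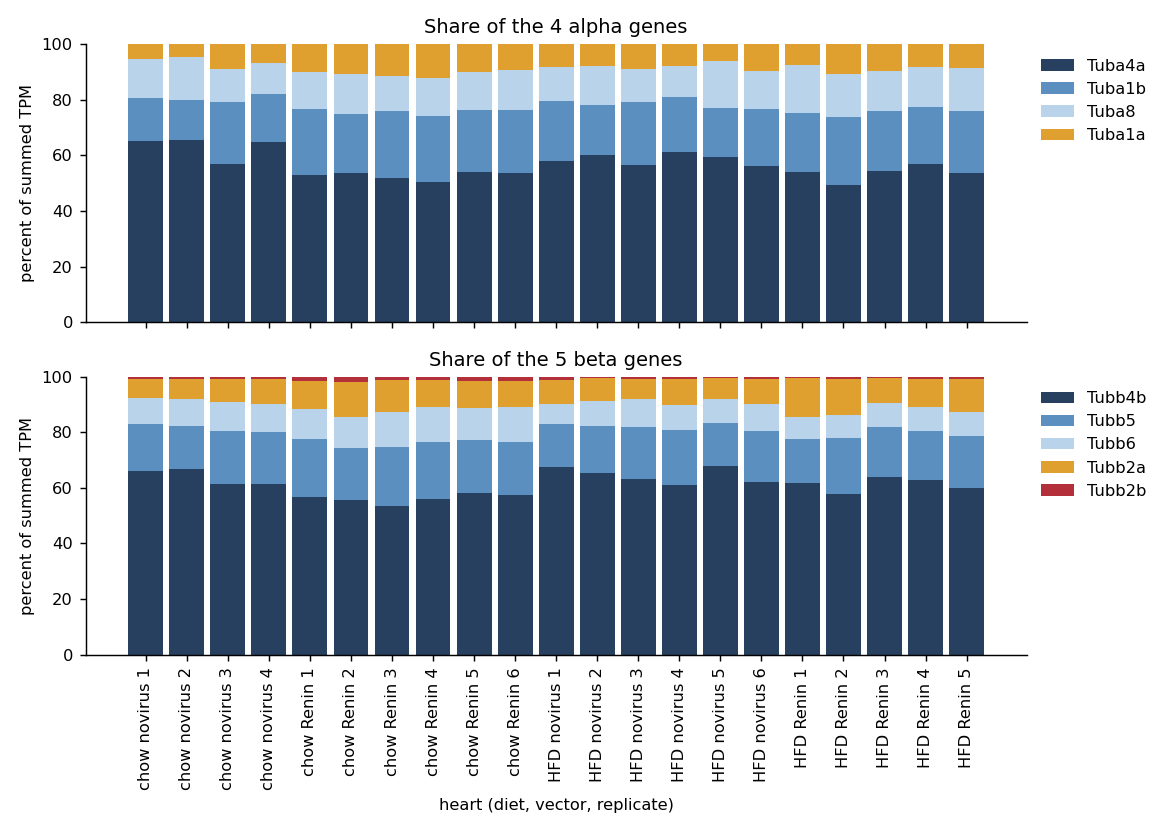
Share of each gene in the summed TPM of alpha-tubulin and of beta-tubulin, as stacked bars for each of the 21 hearts. Tuba4a takes the largest alpha share (49.2% to 65.3% across hearts) and Tubb4b the largest beta share in each group (means of 56.2% to 64.4%).

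Comparing HFD Renin with HFD novirus addressed what renin added on the high-fat diet. Tubb2a and Tubb5 were higher in HFD Renin, and no member was called lower. Tubb2a, a beta-tubulin best known from neurons, had 66.9, 38.3, 26.4, 32.8 and 43.5 CPM in the HFD Renin hearts. In HFD novirus its lowest, median and highest values were 18.2, 24.8 and 29.8. Of the 5 HFD Renin hearts, 4 lay above all 6 HFD novirus hearts, and replicate 3 lay inside their range. The log2 difference was 0.76 ± 0.17, or 1.70-fold (edgeR adjusted p = 0.00724). Replicate 1 was the highest HFD Renin heart, and without it the difference was 0.52 with an adjusted p of 0.0161. Fitted on only these 2 groups, the difference was 0.76 with an adjusted p of 0.0679.

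Tubb5, a beta-tubulin found in most tissues, rose less. HFD Renin hearts had 134, 96.0, 94.2, 96.6 and 117 CPM. HFD novirus hearts had a lowest, median and highest value of 81.7, 82.9 and 106. Only 2 of the 5 HFD Renin hearts lay above all of the others. The log2 difference was 0.28 ± 0.09, or 1.21-fold (edgeR adjusted p = 0.0451). This call was close to the threshold of 0.05 and was lost when any of 11 single hearts was left out, with adjusted p from 0.0506 to 0.196 (chow novirus 2, chow Renin 2, 4, 5 and 6, HFD novirus 1, 2, 3 and 5, HFD Renin 1 and 5). Chow hearts enter because all groups share 1 estimate of the spread. It was also lost on only these 2 groups (0.27, adjusted p = 0.131), with upper-quartile factors (0.25, adjusted p = 0.0592) and with the central neuron score (0.25, adjusted p = 0.0789), with the difference about as large.

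Across the 9 members, 2 were called in this comparison, both higher, against 11.1% of all genes tested (6.07% higher and 5.08% lower). That background of 923 genes higher and 773 lower moved too. It fell to 376 and 320 without HFD Renin 1, and to 324 and 225 on only these 2 groups. The other 6 besides Tuba4a had positive differences that did not pass the test, from 0.13 for Tuba1a to 0.31 for Tubb2b (adjusted p from 0.242 to 0.395). The median over the 9 was 0.20, and that over all genes was -0.01. Of the 5 proliferating cell markers, 4 were also called higher in HFD Renin, and 4 of the 7 ventricular cardiomyocyte markers were called lower; their part in the tubulin differences was not tested. With the clock score added to the fit, the Tubb2a difference was 0.09 (adjusted p = 0.999) and the Tubb5 difference was -0.002. The part of clock state in either difference cannot be told apart from that of the group. Each p-value tests a group difference against a spread between hearts that was estimated jointly over the 4 groups.

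**Figure D4:**
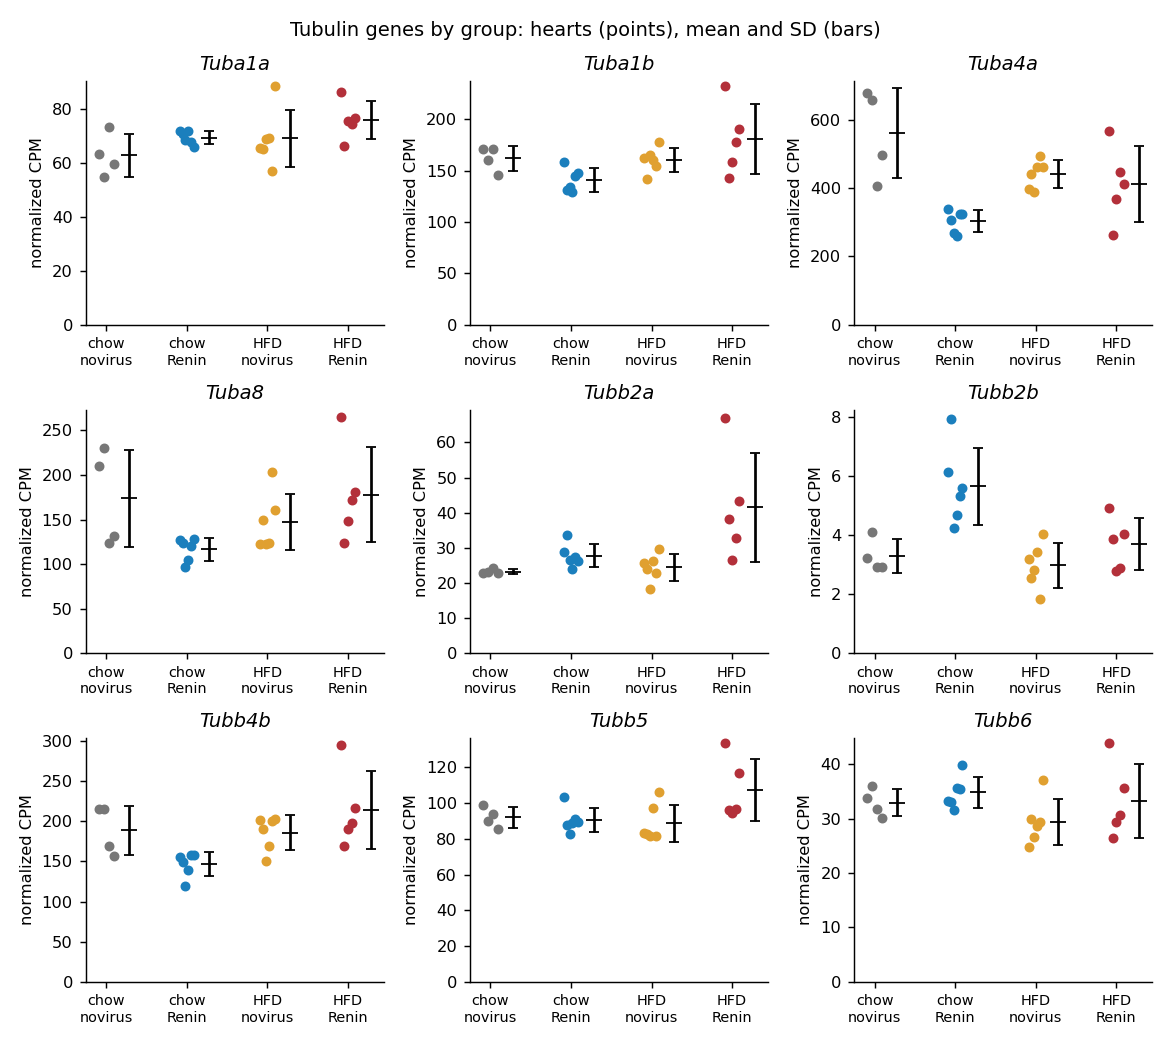
TMM-normalised CPM of each tubulin gene in the 4 groups, with a point per heart and the group mean and SD as bars. For Tubb2a, 4 of the 5 HFD Renin hearts lie above every HFD novirus heart, and for Tuba4a all 6 chow Renin hearts (259 to 340 CPM) lie below all 4 chow novirus hearts (406 to 679 CPM).

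Against the chow novirus control, HFD Renin hearts again had more Tubb2a and no other called member. The 4 control hearts had 23.0, 23.1, 24.2 and 22.7 CPM of Tubb2a, all below the lowest HFD Renin heart (26.4). The difference was 0.84 ± 0.19 (log2), or 1.79-fold (edgeR adjusted p = 0.0108), and it was 0.59 (adjusted p = 0.0151) without HFD Renin replicate 1. Fitted on only these 2 groups it was 0.83 (adjusted p = 0.0867), and with the clock score in the fit its sign turned (-0.14, adjusted p = 0.999). Clock scores of HFD Renin (-1.62 to -0.01) and chow novirus (0.37 to 1.03) did not overlap, so clock state and group cannot be told apart here either. Of the 7 ventricular cardiomyocyte markers, 5 were called lower in HFD Renin, and of the 5 proliferating cell markers 2 were called higher; their part was not tested. Of the 8 members tested, 1 was called, against 8.29% of all genes, and groups without overlap in the higher direction occurred for 4.98% of all genes. Tuba1a (0.27 ± 0.10, adjusted p = 0.0867) and Tubb5 (0.22 ± 0.10, adjusted p = 0.166) did not pass. Tuba4a was described by -0.44 ± 0.17. This comparison shares the HFD Renin hearts with the preceding one.

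Diet alone gave no called member between HFD novirus and chow novirus, by edgeR or by DESeq2, against 0.0657% of all genes called by edgeR. None of the 8 members tested had an unadjusted p under 0.05, and Tuba4a was described by -0.35 ± 0.16. Among the 8, differences ran from -0.24 ± 0.21 for Tuba8, a divergent alpha-tubulin of muscle and testis, to 0.14 ± 0.09 for Tuba1a, an alpha-tubulin prominent in developing neurons.

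**Figure D5:**
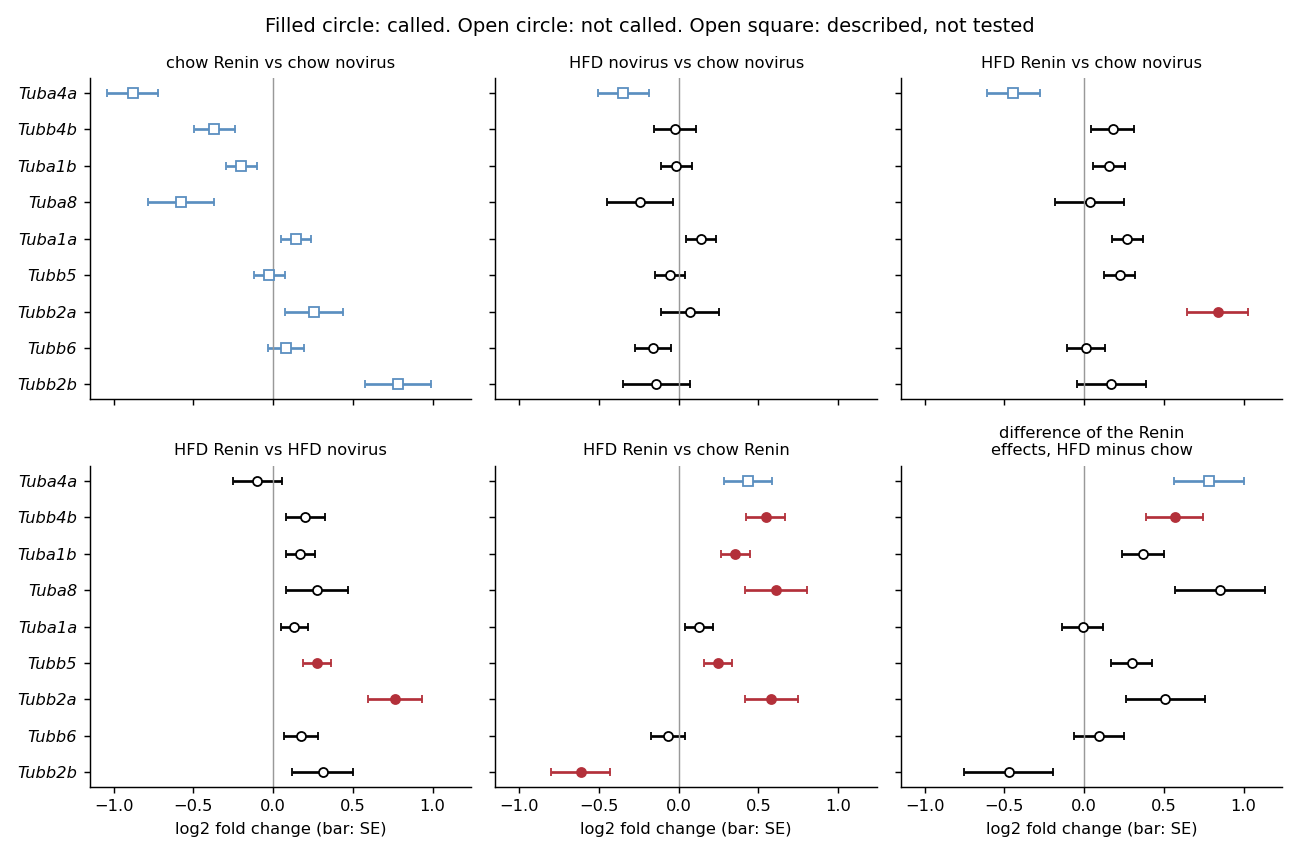
Log2 fold change (points) with its SE (bars) of each tubulin gene in the group comparisons and in the diet by renin interaction; filled circles passed the adjusted p threshold of 0.05, open circles did not, and open squares were described and not tested. Tubb2a is called in HFD Renin against both HFD novirus (0.76) and chow novirus (0.84), and Tubb4b is called against chow Renin (0.55) and in the interaction (0.57).

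Under renin, HFD hearts differed from chow hearts in most members. Of the 8 genes other than Tuba4a, 6 were called, 5 higher in HFD Renin and 1 lower, against 22.6% of all genes tested (9.8% higher and 12.8% lower). Tubb4b, the main beta-tubulin here, had 295, 169, 190.5, 197 and 217 CPM in HFD Renin. Its lowest, median and highest values in chow Renin were 120, 152 and 158, so that all 5 HFD Renin hearts lay above all 6 chow Renin hearts, as they did for 5.55% of genes. The log2 difference was 0.55 ± 0.12, or 1.46-fold (edgeR adjusted p = 0.00216).

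Tuba1b, a broadly expressed alpha-tubulin, differed by 0.35 ± 0.09 (adjusted p = 0.00619), with group means of 181 CPM in HFD Renin and 141.2 in chow Renin. Tuba8 differed by 0.61 ± 0.19 (adjusted p = 0.0286), Tubb2a by 0.58 ± 0.17 (adjusted p = 0.0159) and Tubb5 by 0.25 ± 0.09 (adjusted p = 0.0459). These 4 overlapped between the groups. Single hearts ended or narrowed these calls. Without HFD Renin 1, Tuba1b differed by 0.23 (adjusted p = 0.0495), and its call was lost by limma on log2(TPM + 1) (adjusted p = 0.254) and with the clock score (adjusted p = 0.115). The Tubb2a call was lost without HFD Renin 1 (0.32, adjusted p = 0.0744), and the Tuba8 call without any of chow Renin 1, 3, 4 and 5 or HFD Renin 1 and 5 (adjusted p from 0.0519 to 0.148). The Tubb5 call was lost without any of chow novirus 1 and 2, chow Renin 2 to 6, HFD novirus 2 and 3, or HFD Renin 1 and 5 (adjusted p from 0.0514 to 0.287). Both limma fits and the clock score also ended the Tuba8, Tubb2a and Tubb5 calls (adjusted p from 0.0985 to 0.464), and fitting only these 2 groups ended those of Tubb2a (0.0536) and Tubb5 (0.0565). The Tubb2a call was also lost with Tubb2b reads added (0.0644), and the Tuba8 and Tubb5 calls with no filter (0.0593 and 0.0602) or without high-atrial hearts (0.0822 and 0.0652). Upper-quartile factors (0.128) and the atrial score (0.0515) also ended the Tubb5 call. Tuba1a (0.13 ± 0.09) and Tubb6 (-0.07 ± 0.11), a divergent beta-tubulin, did not pass. Tuba4a was described by 0.44 ± 0.15.

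Tubb2b, a near-copy of Tubb2a that is typical of neurons, went the other way. It had 4.9, 3.9, 2.8, 2.9 and 4.0 CPM in HFD Renin, and a lowest, median and highest value of 4.25, 5.46 and 7.95 in chow Renin. Only the highest HFD Renin heart reached into the chow Renin range. The log2 difference was -0.61 ± 0.19 (edgeR adjusted p = 0.0191), and the call was lost without chow Renin 2, HFD Renin 3 or HFD Renin 4 (adjusted p from 0.0501 to 0.0607). It was also lost with the length offset (0.105), by limma on log2(TPM + 0.1) (0.0753) and without high-atrial hearts (0.0554). When its reads were summed with those of its near-copy Tubb2a, which are far more numerous, the sign turned and the difference was 0.44. Tubb2b was the only member that passed the test lower in HFD Renin than in chow Renin, and all 8 central neuron markers were called lower as well. Of the 7 ventricular cardiomyocyte markers 4 were called lower and 1 higher, and of the 5 endothelial markers 2 were called higher. With the central neuron score in the fit, no member was called, Tuba1b, Tubb2a and Tubb5 changed sign, Tubb4b went to 0.01 and Tubb2b stayed at -0.61. That score was at least 4.35 in chow Renin and between 2.57 and 3.27 in HFD Renin, with no overlap, so it and the group cannot be told apart.

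The interaction asks whether renin acted differently on the 2 diets. Among the 8 genes other than Tuba4a, Tubb4b was called, with a renin effect 0.57 ± 0.18 (log2) higher on the HFD than on chow (edgeR adjusted p = 0.0428). The background was 10.4% of all genes (3.14% higher and 7.3% lower). The call was lost without any of 12 single hearts (adjusted p from 0.0514 to 0.123), namely chow novirus 1 and 2, chow Renin 1 to 5, HFD novirus 2, 3 and 4, and HFD Renin 1 and 5. It was also lost with upper-quartile factors (adjusted p = 0.0576), with no filter on low counts (0.0699) and by limma on log2(TPM + 1) (0.0965). All 8 central neuron markers were called lower in the interaction, and with their score in the fit the Tubb4b value was -0.09 (adjusted p = 0.997). Tuba8 (0.85 ± 0.28, adjusted p = 0.0615) and Tuba1b (0.37 ± 0.13, adjusted p = 0.0802) had positive values short of the threshold. Tubb2a and Tubb5, both called for renin on the HFD, gave 0.51 ± 0.25 (adjusted p = 0.227) and 0.30 ± 0.13 (adjusted p = 0.159), so their renin effects were not shown to differ between diets.

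On chow, renin went with differences in both directions, given here as description because Tuba4a was chosen on this contrast. Tubb2b differed by 0.78 ± 0.21 (log2), from 3.24, 4.11, 2.91 and 2.91 CPM in the controls to between 4.25 and 7.95 in the chow Renin hearts. All 8 central neuron, 5 oligodendrocyte and 4 astrocyte markers were called higher in the same contrast. Central neuron scores (2.56 to 2.80 in chow novirus and at least 4.35 in chow Renin) did not overlap, so they and the group cannot be told apart. Clock scores (0.37 to 1.03 in chow novirus and -0.51 to -0.04 in chow Renin) did not overlap either, so the same holds for clock state. All 5 proliferating cell markers were called higher (summed 9.65 to 15.1 TPM in chow Renin and 3.72 to 5.82 in chow novirus), and 2 of the 7 ventricular cardiomyocyte markers were called lower. Tuba8 differed by -0.58 ± 0.21, Tubb4b by -0.37 ± 0.13 and Tuba1b by -0.20 ± 0.10. Tubb2a gave 0.26 ± 0.18, Tuba1a 0.14 ± 0.09, Tubb6 0.08 ± 0.11 and Tubb5 -0.02 ± 0.09. Tuba4a and Tubb2b did not overlap between the groups, as was so for 10.4% of all genes in the higher and 4.75% in the lower direction. Of all genes, 13.5% were called in this contrast (10.1% higher and 3.36% lower).

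The upstream sequences of Tubb2a and Tubb4b are shown because Tubb2a had the larger of the 2 called differences for renin on the HFD and Tubb4b was called in the interaction. The 250 bases before each start are from RefSeq on GRCm38.p6, 5′ to 3′ on the gene's strand; 7 of the 9 members had an entry. Capitals mark matches on either strand to CCAAT, to the GC box GGGCGG or to TATAAA.
Tubb2a (chr13:34078009-34078258, minus strand): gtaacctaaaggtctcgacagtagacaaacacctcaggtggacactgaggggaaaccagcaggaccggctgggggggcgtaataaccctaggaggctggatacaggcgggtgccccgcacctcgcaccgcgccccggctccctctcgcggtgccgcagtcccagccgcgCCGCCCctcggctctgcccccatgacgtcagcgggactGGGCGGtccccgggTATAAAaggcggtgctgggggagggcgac
Tubb4b (chr2:25224703-25224952, minus strand): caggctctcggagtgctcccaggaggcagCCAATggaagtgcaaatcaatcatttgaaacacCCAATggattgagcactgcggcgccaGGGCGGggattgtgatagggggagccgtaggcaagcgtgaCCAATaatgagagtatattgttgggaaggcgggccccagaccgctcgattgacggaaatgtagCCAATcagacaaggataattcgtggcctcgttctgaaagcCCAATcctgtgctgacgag
Counting also the 50 bases after the start, CCAAT occurred 5 times at Tubb4b, 2 times at Tubb5 and once at Tuba1a, and 37.4% of 32851 promoters held it. GGGCGG occurred 2 times each at Tuba1b, Tuba4a, Tubb2a, Tubb4b and Tubb5, once at Tuba1a and in 35.7% of promoters. TATAAA occurred before the start of Tubb2a and after that of Tubb4b, and in 13.6% of promoters. CACGTG occurred at Tuba8 and Tubb5 (7.15% of promoters) and CATTCC at Tubb5 (14.7%), and neither the CArG box nor the MEF2 site matched in the 7 windows. Both strands were searched, and no match overlapped one of another motif. The matches describe letters only.

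The rest of the microtubule system was followed through 9 lists with 109 genes, 101 of them tested. In HFD Renin against HFD novirus, 16 were called higher and 2 lower, against 6.07% and 5.08% of all genes tested. With the clock score in the fit, 0 of the 15216 genes were called in this comparison or against chow novirus, so none of the list calls in these 2 comparisons was kept. Among other tubulins, 1 of 8 was called, the alpha gene Tuba1c (0.69 ± 0.15, adjusted p = 0.00562), which shares most of its sequence with Tuba1a and Tuba1b. Among 22 genes for tubulin folding, 3 were called higher, including the chaperonin subunits Cct8 (0.19 ± 0.04, adjusted p = 0.00869) and Cct3 (0.21 ± 0.05, adjusted p = 0.0142). The prefoldin subunit gene Pfdn5 fell by 0.26 on the log2 scale (adjusted p = 0.0190).

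The enzymes that set the C-terminal tail gave 1 call in 4. Ttl, which restores tyrosine, rose from 29.5 ± 3.35 CPM (SD, n = 6) to 35.3 ± 2.48 (n = 5), a log2 difference of 0.26 ± 0.07 (edgeR adjusted p = 0.0240). Vash1 (0.13 ± 0.15) and Svbp (-0.07 ± 0.09), which remove it, did not pass. Vash2 was scarce, at 0.174 to 0.833 CPM in HFD novirus and 0.144 to 0.279 in HFD Renin, and its difference of -1.11 ± 0.48 did not pass (adjusted p = 0.136). The acetylation list (Atat1, Hdac6 and Sirt2) had 0 of 3 called by edgeR, and 0 of 3 had an unadjusted p under 0.05. Of 11 tested genes for adding or trimming glutamate and glycine chains, Ttll7 rose (0.64 ± 0.12, adjusted p = 0.00243) and Ttll1 fell by 0.72 (adjusted p = 0.00633).

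Of 21 microtubule-associated proteins and MARK kinases, 3 were called higher and none lower. Clip1, which tracks growing plus ends, differed by 0.42 ± 0.09 (adjusted p = 0.00633), and Mapt, which encodes tau, by 0.32 ± 0.09 (adjusted p = 0.0200). Map4, the main such protein of heart muscle, went from 457.6 to 542 CPM (0.24 ± 0.07, adjusted p = 0.0362). Mark4, a kinase that phosphorylates MAP4, was not called (-0.15 ± 0.07, adjusted p = 0.171). Stmn1, which sequesters dimers, was the only 1 of 11 destabilising genes called (0.33 ± 0.10, adjusted p = 0.0429). In the gamma-tubulin complex, which nucleates microtubules, 2 of 8 were called, Tubgcp4 (0.61 ± 0.11, adjusted p = 0.00179) and Nedd1 (0.29 ± 0.09, adjusted p = 0.0467). Among 13 motor genes 4 were called higher and none lower, with the kinesin-1 heavy chain Kif5b at 0.52 ± 0.09 (adjusted p = 0.00159) and the dynein light intermediate chain Dync1li2 at 0.37 ± 0.07 (adjusted p = 0.00190).

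In the other comparisons the lists divided differently. Against chow novirus, HFD Renin had 13 called higher and 1 lower of 101, against 4.05% and 4.25% of all genes, with Map4 at 0.35 ± 0.08 (adjusted p = 0.0120), Mapre3 at 0.34 ± 0.07 (adjusted p = 0.00374) and Ttl short of the threshold (0.20 ± 0.08, adjusted p = 0.121). Diet alone gave 0 of 101 by edgeR, with an unadjusted p under 0.05 for 12, against 0.0657% of all genes called. Against chow Renin, HFD Renin had 14 higher and 16 lower, against 9.8% and 12.8% of all genes. Ttl (0.31 ± 0.07, adjusted p = 0.00307) and Map4 (0.30 ± 0.07, adjusted p = 0.00531) were among the higher ones. The lower ones included genes typical of neurons, namely Tubb4a (-1.55 ± 0.14, adjusted p = 2.58e-08), Tubb3 (-1.30 ± 0.17, adjusted p = 4.92e-06), Map2 (-1.74 ± 0.16, adjusted p = 7.51e-08) and Kif5a (-1.86 ± 0.15, adjusted p = 2.41e-08). Other lower ones included Ttll1, Map7 and Kif2c. All 8 central neuron markers were called lower too, and their part in the list calls was not tested. The interaction gave 5 higher and 13 lower, against 3.14% and 7.3% of all genes, with Ttl at 0.36 ± 0.11 (adjusted p = 0.0287). With the central neuron score in the fit, 1 of all genes tested was called higher and 44 lower against chow Renin, and 1 higher and 30 lower in the interaction, so at most 1 of the higher list calls could be kept in each.

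Genes most like a member across the 21 hearts were taken by Pearson's r of log2 CPM among 5553 genes at 20 CPM or more. For Tuba4a they were Ndufaf4 (r = 0.912), Fbxl22 (0.903), Rab1a (0.892), Sh3kbp1 (0.868) and Mrpl45 (0.848). For Tubb2a they were Pfkp (0.903), Col8a1 (0.899), Tulp4 (0.881), Uck2 (0.880) and Kif5b (0.880), with Spearman's rho from 0.647 to 0.860. These values describe hearts that share groups and libraries. Beside the tubulins, the stress genes were far higher in HFD Renin than in HFD novirus. Acta1, the skeletal actin of the stressed heart, averaged 1617 against 108 CPM (adjusted p = 0.00106). Myh7, the slow myosin heavy chain, averaged 2243 against 377 CPM (adjusted p = 0.00371). Nppb, the natriuretic peptide gene, averaged 273 against 67.7 CPM (adjusted p = 0.0217).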

How the data were processed

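RNA of 21 hearts in 4 groups, taken from the sample titles, was analysed. The authors deposited estimated counts (expected counts) and TPM per transcript for each library, per the file headers, and a gene matrix of a normalised signal per library, whose scaling is not stated; that deposited signal served only to list the genes and to check the order of levels. The submitters' processing notes name Salmon 1.10.2, DESeq2 1.40.2 and the builds GRCm38 and mm10. Identifiers of 98.0% of 119215 transcripts matched GENCODE M21 on GRCm38; unmatched ones held 0.854% to 0.925% of reads. Estimated counts were added up per gene and rounded to whole numbers, in place of the raw counts for which the tests had been laid out. In edgeR 4.0.16 (R 4.3.3), TMM factors were 0.886 to 1.09, filterByExpr (minimum count 10) kept 15216 of 23718 genes with reads, and 1 quasi-likelihood fit with a term per group covered all 21 libraries. Benjamini-Hochberg adjustment ran over 15216 genes, with calls at adjusted p under 0.05. Effects are log2 with the SE taken from the F statistic. Levels were compared between genes as TPM only.

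The members and lists were chosen with earlier results of these data known. Named beyond the members were, per list, comparison and direction, up to 2 called genes of lowest adjusted p; Ttl, Vash1, Vash2, Svbp, Map4 and Mark4; the 5 genes most like Tuba4a and Tubb2a by Pearson's r; and Nppb, Myh7 and Acta1. Acetylation genes, Stk16 and neighbours in sequence were named after their values were seen. Alternatives were DESeq2 1.42.0, upper-quartile factors, no filter, fits of only the groups compared, a length offset, limma 3.58.1 on log2(TPM + 1) and log2(TPM + 0.1), summed near-identical copies, clock, neuron and atrial scores as covariates, the replicate block and leaving out each heart. Fits without chow Renin or without high-atrial hearts, and levels from long-coding transcripts, were chosen after seeing the data.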

Additional observations from a re-analysis of the deposited data

Results flagged for a closer look

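The renin effect on Tubb4b differed between diets by 0.569 on the log2 scale. It was the only one of the 8 members tested for such a difference that was called (Tuba4a was not tested). Mean CPM went from 189 ± 30.4 (SD, n = 4) to 146 ± 14.8 (n = 6) with renin on chow, and from 186 ± 21.3 (n = 6) to 213.7 ± 48.6 (n = 5) with renin on the HFD. In the edgeR fit the adjusted p was 0.0428. The value was lower without HFD Renin 1, the highest heart at 295 CPM, where it was 0.41 with an adjusted p of 0.0954. With the central neuron score in the fit it was -0.092 (adjusted p = 0.997), and all 8 markers of that score were called lower in the interaction. Of 36 groups of member values examined for a single heart far from the others, 0 held one.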

How the results depend on the processing

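Over 10 called member differences, 342 alternative values kept the direction and the call in 251, lost the call in 84 and turned sign in 7. The 7 were Tubb5 in HFD Renin against HFD novirus (-0.0017) and Tubb2a in HFD Renin against chow novirus (-0.14) with the clock score, Tuba1b (-0.052), Tubb2a (-0.35) and Tubb5 (-0.10) in HFD Renin against chow Renin and Tubb4b in the interaction (-0.092) with the neuron score, and Tubb2b against chow Renin with near-identical copies summed (0.44); the cause was not tested. The number of members called in HFD Renin against HFD novirus, 2, became 1 with upper-quartile factors, the neuron score, chow Renin hearts left out or high-atrial hearts left out, and 0 with only the groups compared (Tubb2a 0.76, adjusted p = 0.0679) or the clock score. With copies summed, Tubb2b was called as well, through its single sum with Tubb2a (0.72, edgeR adjusted p = 0.00955). In the other comparisons Tuba4a was not tested and is left out of the counts. Against chow novirus, 1 became 0 with only the groups compared or the clock score, and 2 with copies summed, where the single sum of Tubb2a and Tubb2b counts for both. Against chow Renin, 6 became 5 with upper-quartile factors, the length offset, copies summed or the atrial score, 4 with no filter or only the groups compared, 3 without high-atrial hearts, 2 by limma on log2(TPM + 1), 1 on log2(TPM + 0.1), 2 with the clock score and 0 with the neuron score. With copies summed, the single sum of Tuba1a, Tuba1b and Tuba1c counts for both Tuba1a and Tuba1b (0.26, edgeR adjusted p = 0.0175). There the Tubb2a and Tubb2b calls were lost. The interaction, 1, became 0 with upper-quartile factors, no filter, either limma fit, the neuron score or high-atrial hearts left out, 2 by DESeq2 or with the atrial score, and 3 with the clock score. Chow Renin against chow novirus, 1, became 2 by DESeq2 or with the clock score, 3 with only the groups compared, and 0 with the length offset, log2(TPM + 0.1), copies summed or the neuron score; nothing is read from this contrast. Leaving out each heart gave 1 to 2, 1 to 2, 0 to 0 (diet alone), 3 to 6, 0 to 3 and 1 to 3 members called in the order HFD Renin against HFD novirus, against chow novirus, diet, HFD Renin against chow Renin, interaction and renin on chow. In the fit of only the groups compared, the interaction has no separate value, since all groups enter.

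Outside the replicate block, replicate numbers were not used as pairs. The 28 same-number pairs had correlations of -0.23 to 0.42 (median 0.08, 11 over 0.1), and the 136 other pairs -0.26 to 0.40 (median -0.02). Pairs of replicate 3, which had a high atrial score in every group, lay at 0.22 to 0.42. Whether the numbers pair hearts cannot be told from these values. With the replicate block, Tubb2a in HFD Renin against HFD novirus was 0.75 (adjusted p = 0.00926) and Tubb5 0.29 (adjusted p = 0.0250), with 2 members called; the interaction had 3 and renin on chow 3. The split of all genes called also moved with upper-quartile factors, and with limma and DESeq2, which change the test and the normalisation together. HFD Renin against HFD novirus had 923 higher and 773 lower in edgeR, 819 and 911 with upper-quartile factors, 1520 and 180 by limma on log2(TPM + 1), and 1533 and 192 on log2(TPM + 0.1), where the median of all genes was 0.118, and -0.107 for diet alone, against -0.0064 and 0.0089 in the edgeR fit. Against chow Renin the split was 1491 and 1949, with upper-quartile factors 844 and 2247, and by limma 276 and 2171 or 254 and 2133; for the interaction, 478 and 1111, then 281 and 1200, 210 and 914, and 210 and 898; for renin on chow, 1537 and 511, then 1625 and 264, 1573 and 41, and 1568 and 33. Diet alone had 2 and 8, by DESeq2 47 and 70, and by limma 1 and 86 or 2 and 109. No called member changed direction under these settings, and Tuba4a in HFD Renin against HFD novirus was 0.0077 on log2(TPM + 0.1). Depth limits Tubb2b most, at 99.6 estimated reads per heart.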
